A study of Homo sapiens with 29 samples.

Results

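The peaks of 6 ATAC-seq libraries of parental 22Rv1 cells were compared, 3 treated with the stereoprobe WX-02-23 (20 µM, 3 h) and 3 with the vehicle DMSO (0.1%, 3 h), out of 29 libraries in the series. Merging overlapping or touching peaks of the 6 lists on chromosomes 1 to 22, X and Y gave 124871 regions. A region was called held when all 6 lists had a peak in it (63756 regions, 51.1%). It was called gained when the 3 WX-02-23 lists and no DMSO list had a peak (2259 regions, 1.81%), and lost in the reverse case (1472 regions, 1.18%). The other 57384 regions were mixed. Both groups carried the unmodified parental genotype and differed by the compound alone, per the labels. The labels do not say whether the libraries came from separate cultures, so any p-value measures only the spread between these libraries.

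22Rv1 is a human prostate cancer cell line. ATAC-seq uses a transposase that cuts exposed DNA, so reads pile up where nucleosomes are absent or displaced, and a peak marks such a site. FOXA1 is a pioneer transcription factor of the forkhead family. It can bind its motif on nucleosomal DNA and help open enhancers, and in prostate cells many androgen receptor sites lie beside it. WX-02-23 is a covalent ligand of FOXA1 that reacts with the cysteine C258, and it also binds the splicing factor SF3B1. WX-02-43 is its stereoisomer, and pladienolide B (PladB) is a splicing inhibitor that binds SF3B1. Parental cells given WX-02-43 at 20 µM or PladB at 10 or 100 nM, 3 libraries each, are used below only to look up regions. So are engineered 22Rv1 cells, which express Y36C-PHF5A, a spliceosome variant that blunts the splicing action of such ligands. They also express wild-type (WT) FOXA1 or the mutant C258A-FOXA1, which lacks the reactive cysteine, both induced with doxycycline (Dox), and endogenous FOXA1 is still present. With Dox, each line gave 2 libraries with DMSO (0.1%) and 2 with WX-02-23 (20 µM), and every compound was given for 3 h. Peak names put the engineered lists in another processing folder than the parental ones, so line and processing cannot be told apart when levels are compared with parental cells. Gene names, promoters, motifs and markers of the cell type were not analysed here, so regions are named by their hg19 coordinates.

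The WX-02-23 and DMSO lists were of like size. The DMSO lists held 91632, 98193 and 93068 peaks and the WX-02-23 lists 97445, 93866 and 95707, so the groups overlapped. Median peak width was 313, 311 and 312 bp after DMSO and 319, 311 and 314 bp after WX-02-23. The peaks covered 37.6, 39.5 and 37.7 Mb after DMSO and 40.6, 38.1 and 39.1 Mb after WX-02-23. The median gap between neighbouring peaks was 14.7, 14.1 and 14.7 kb after DMSO and 14.2, 15.0 and 14.5 kb after WX-02-23. The difference in means was 1375 peaks (exact permutation p = 0.6), 2.67 bp of width (p = 0.5), 1.0 Mb covered (p = 0.3) and 0.063 kb of gap (p = 0.9). These exact two-sided p-values cannot go below 0.1 with 3 lists a group, and they were 0.8, 0.8, 0.8 and 0.9 after Benjamini-Hochberg adjustment. Read counts were not given. A relative depth, the background in reads per base read from the steps of the authors' fold values, was 0.935 ± 0.062 (SD, n = 3) in DMSO and 1.03 ± 0.10 (SD, n = 3) in WX-02-23 libraries, and its part in the counts of gained and lost regions was not tested.

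Outside held regions, a peak in a single list was the most frequent pattern. Regions with a peak in only 1 of the 6 lists numbered 11183 for a DMSO list and 11313 for a WX-02-23 list. A peak in 2 WX-02-23 lists and no DMSO list was found in 3545 regions, and a peak in 2 DMSO lists and no WX-02-23 list in 3078. Thus each step from 1 to 2 to 3 lists of a group reduced the count, to 2259 gained and 1472 lost regions at the end. Regions with all 3 WX-02-23 lists and 1 DMSO list numbered 2590, against 2089 with all 3 DMSO lists and 1 WX-02-23 list. If 1 list of either group was allowed to differ, 8394 regions were gained and 6639 lost. Fewer lists make both rules easier to meet: gained regions were over 1.5 times as many without WX-02-23 replicate 2 (3730) or WX-02-23 replicate 3 (3512) or DMSO replicate 2 (3480). Lost regions were over 1.5 times as many without DMSO replicate 1 (2773), DMSO replicate 3 (2609) or WX-02-23 replicate 1 (2363). In each of these 6 settings gained regions outnumbered lost ones.

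**Figure D1:**
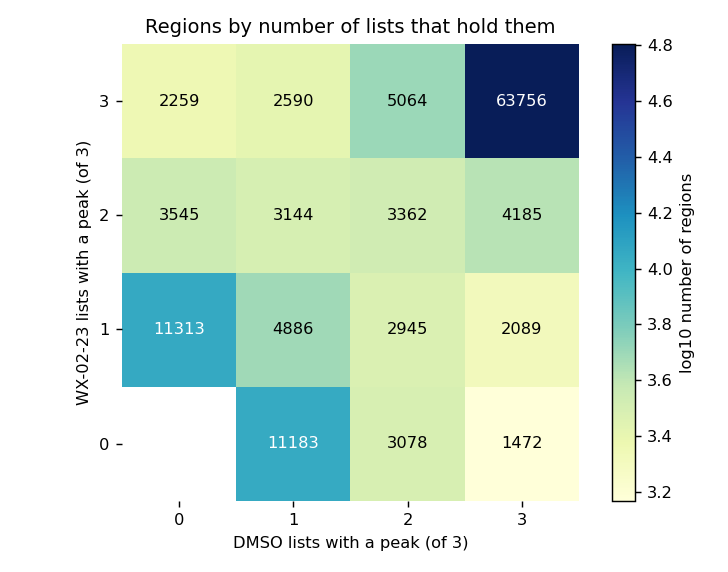
Number of merged regions by how many of the 3 DMSO lists (horizontal axis) and 3 WX-02-23 lists (vertical axis) had a peak in them, with colour on a log10 scale. The 63756 held regions are at the top right, the 2259 gained regions at the top left and the 1472 lost regions at the bottom right.

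Gained and lost regions were small, low-ranked sites compared with held ones. The median merged width was 313 bp for gained and 301 bp for lost regions, against 558 bp for held regions. The authors' −log10 p of each peak was turned into a percentile within its own list. The median percentile was 25.6 for gained, 23.2 for lost and 65.8 for held regions. A mean percentile over 50 was reached by 203 of 2259 gained and 63 of 1472 lost regions. A useful yardstick is the 6089 mixed regions that also had a peak in 3 of the 6 lists, but spread over both groups. Their median width was 262 bp and their median percentile 16.0, and none of them passed the 50th percentile. Gained and lost regions thus ranked above regions that were present equally often without regard to treatment. These values describe classes made from the same lists and carry no test.

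The summits of gained and lost regions agreed slightly less well across lists than those of mixed regions of 3 lists. The median peak width was 240 bp in gained, 226 bp in lost and 187 bp in those mixed regions. The summit is the base with the most overlapping reads. Its range over the 3 lists was a median of 68 bp in gained and also 68 bp in lost regions, and 60 bp in mixed regions of 3 lists. Over the 6 lists of held regions it was 77 bp, which is a range over more lists and in wider peaks (median 410 bp). All summits lay within 50 bp of each other in 35.9% of gained, 33.0% of lost and 41.2% of mixed regions of 3 lists.

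Gained and lost regions were scattered among held regions. The median distance to the nearest held region was 13.8 kb for gained and 13.1 kb for lost regions, and 10.8 kb between held regions. A held region within 1 kb was present for 13.5% of gained, 9.38% of lost, 12.9% of held and 14.1% of mixed regions of 3 lists. More than 100 kb from any held region lay 132 gained regions (5.84%), 71 lost regions (4.82%) and 2.87% of held regions. Another region of the same class lay within 10 kb of 74 gained regions (3.28%) and 38 lost regions (2.58%), against 5.67% of the 6089 mixed regions of 3 lists. The classes differ in size, and these shares were not compared at equal size. A lost region lay within 10 kb of 34 gained regions (1.51%), and within 1 kb of 5. Runs of at least 3 regions of a class, each within 50 kb of the next, numbered 5 for gained and 1 for lost regions. The tightest gained run, chr14:48679438-48715176, held 3 gained regions among 4 regions in 35.7 kb, with no held region between them. The lost run, chr1:239204444-239254634, held 3 lost regions among 4 regions in 50.2 kb, also with no held region.

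**Figure D2:**
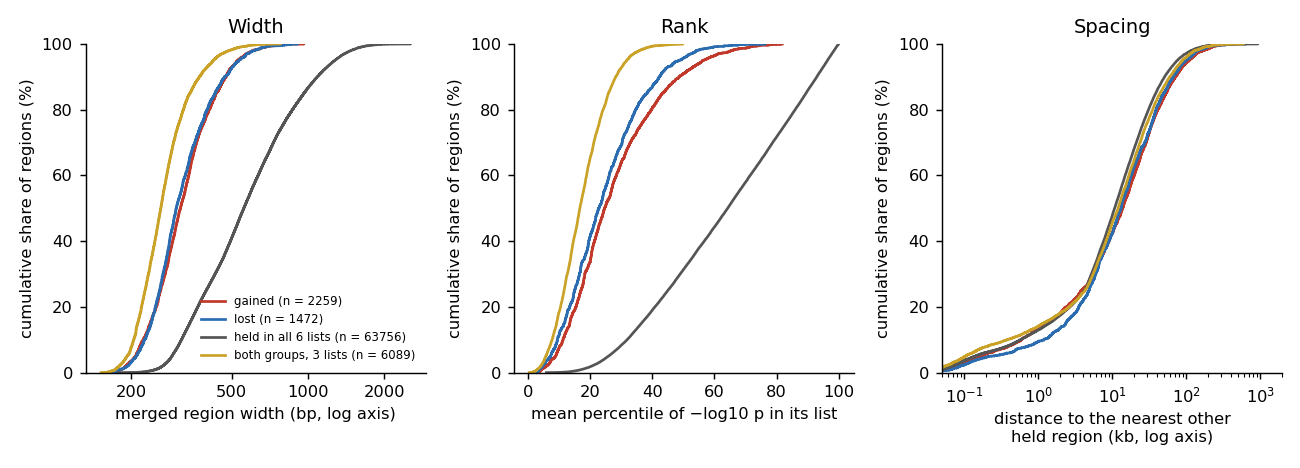
Cumulative share of regions (%) against merged width (bp), mean percentile of −log10 p within the list, and distance to the nearest other held region (kb), for gained (red), lost (blue), held (grey) and mixed regions with peaks in 3 lists of both groups (yellow). Gained and lost curves run close together, left of the held regions in width and rank and right of the mixed ones, and the 4 spacing curves nearly coincide.

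The highest-ranked gained region was chr13:105137929-105138562, 634 bp wide. Its authors' fold over local background was 17.5, 13.8 and 12.5 in the 3 WX-02-23 lists, and its summits fell within 26 bp. It had no peak in any of the 3 WX-02-43, 3 PladB 10 nM or 3 PladB 100 nM lists of parental cells. In the engineered lines it had a peak in 2 of 2 WX-02-23 lists and 0 of 2 DMSO lists of each line, so it followed the compound in every list looked at. The regions chr2:63661917-63662482, chr8:29513293-29513801 and chr20:19991180-19991828 showed the same engineered pattern, with folds of 12.7 to 14.9, 11.2 to 13.0 and 11.1 to 11.9. Each of them also had a peak in 1 of 3 WX-02-43 lists, and the last in 2 of 3 PladB 10 nM lists. The second-ranked gained region behaved otherwise. This site, chr7:143584696-143585186, had folds of 12.7, 13.0 and 16.6 after WX-02-23, but all 9 lists of the other parental treatments and all 8 engineered lists used also had a peak there, so of the lists looked at the 3 parental DMSO lists were the only ones without it. Among the 10 highest-ranked gained regions, chr12:79838798-79839457 and chr15:99982284-99982751 also had peaks in both DMSO lists of both engineered lines. At chr10:63090300-63090898 each line went from 0 to 1 of 2 lists. At chr6:55718313-55718802 the WT-FOXA1 line went from 1 to 2 lists and the C258A-FOXA1 line from 0 to 2. At chr19:5954701-5955087 the WT-FOXA1 line had no peak with either treatment and the C258A-FOXA1 line went from 1 to 2 lists.

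The 10 highest-ranked lost regions had peaks in the WX-02-43 lists. Each had a peak in 3 of 3 WX-02-43 lists and 3 of 3 PladB 10 nM lists, and 9 of the 10 in 3 of 3 PladB 100 nM lists. At chr17:31158546-31159087 the DMSO folds were 7.31, 8.52 and 8.15, and the 3 summits fell within 5 bp. This region had a peak in 2 of 2 DMSO and 0 of 2 WX-02-23 lists of the WT-FOXA1 line, and in 2 of 2 lists of both kinds of the C258A-FOXA1 line. The region chr3:102312628-102313116, with folds of 10.6, 11.9 and 10.3, gave the same counts in both lines. At chr4:115514877-115515498, chr6:78363511-78364061, chr2:220636819-220637282 and chr2:9548720-9549233 the WT-FOXA1 line went from 2 to 0 lists and the C258A-FOXA1 line from 2 to 1. At chr10:92230709-92231198 and chr5:163273587-163273938 the WT-FOXA1 line went from 2 to 1 lists and the C258A-FOXA1 line stayed at 2. The exceptions were the top-ranked chr10:27292311-27292740, with folds of 11.8, 17.3 and 13.8 and a peak in every list of both lines, and chr3:171482955-171483302, with a peak in none of them.

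The engineered lists took no part in choosing the regions. Highly ranked gained regions recurred in both engineered lines. Of the 203 gained regions over the 50th percentile, the DMSO lists of the WT-FOXA1 line had a peak in 37.9% and 34.0% and the WX-02-23 lists in 66.0% and 60.1%. The C258A-FOXA1 line had 28.1% and 31.0% with DMSO and 56.7% and 68.5% with WX-02-23. In both lines the WX-02-23 lists lay above the DMSO lists, by 27.1 ± 3.6 percentage points (SE, n = 2 a group) in the WT-FOXA1 and 33.0 ± 6.1 in the C258A-FOXA1 line. The difference between the lines was −5.91 ± 7.1 points (SE), with an exact permutation p of 0.444 (two-sided, line labels permuted within treatment, 36 arrangements, adjusted p = 0.444). Its sign turned, to 8.87 points, when the 8 engineered lists were cut to equal length. The gained regions at or under the 50th percentile went from 22.7% to 26.4% in the WT-FOXA1 line and from 18.5% to 31.7% in the C258A-FOXA1 line. In parental cells the 203 regions had a peak in 27.3% ± 13.8 (SD, n = 3) of cases with WX-02-43, 12.2% ± 3.6 with PladB 10 nM and 9.52% ± 2.2 with PladB 100 nM.

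Highly ranked lost regions were mostly missing from the WX-02-23 lists of the WT-FOXA1 line. Of the 63 lost regions over the 50th percentile, the DMSO lists of that line had a peak in 77.8% and 73.0% and each WX-02-23 list in 6.35%. The C258A-FOXA1 line had 71.4% and 81.0% with DMSO and 30.2% and 49.2% with WX-02-23. The WX-02-23 minus DMSO difference was −69.0 ± 2.4 points (SE, n = 2 a group) in the WT-FOXA1 line and −36.5 ± 10.6 points in the C258A-FOXA1 line, without overlap between treatments in either line. The lines differed by −32.5 ± 10.9 points (SE), which did not pass the exact permutation test (p = 0.222, adjusted p = 0.444) in a design where p cannot go below 0.0556. Held regions went from 86.1% ± 1.3 to 72.3% ± 2.8 (SD, n = 2) in the WT-FOXA1 line and from 83.9% ± 1.2 to 82.0% ± 5.8 in the C258A-FOXA1 line. After cutting the 8 engineered lists to equal length, held regions went from 74.6% to 70.8% and from 72.3% to 71.1%, and the difference for the 63 lost regions was −54.0 points in the WT-FOXA1 and −34.9 points in the C258A-FOXA1 line. The lines then differed by −2.55 points for held regions (exact permutation p = 0.167) and −19.0 points for the 63 lost regions (exact permutation p = 0.278). The less highly ranked lost regions went from 36.9% to 5.71% in the WT-FOXA1 line and from 34.4% to 20.6% in the C258A-FOXA1 line. Parental WX-02-43 lists had a peak in 98.4% ± 1.6 (SD, n = 3) of the 63 regions, PladB 10 nM lists in 97.4% ± 2.4 and PladB 100 nM lists in 85.2% ± 2.4. Over all 1472 lost regions these shares were lower, at 69.3% ± 12.3, 63.0% ± 6.2 and 43.4% ± 4.9, and over held regions they were 97.8% ± 1.6, 97.6% ± 0.99 and 95.0% ± 0.69.

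**Figure D3:**
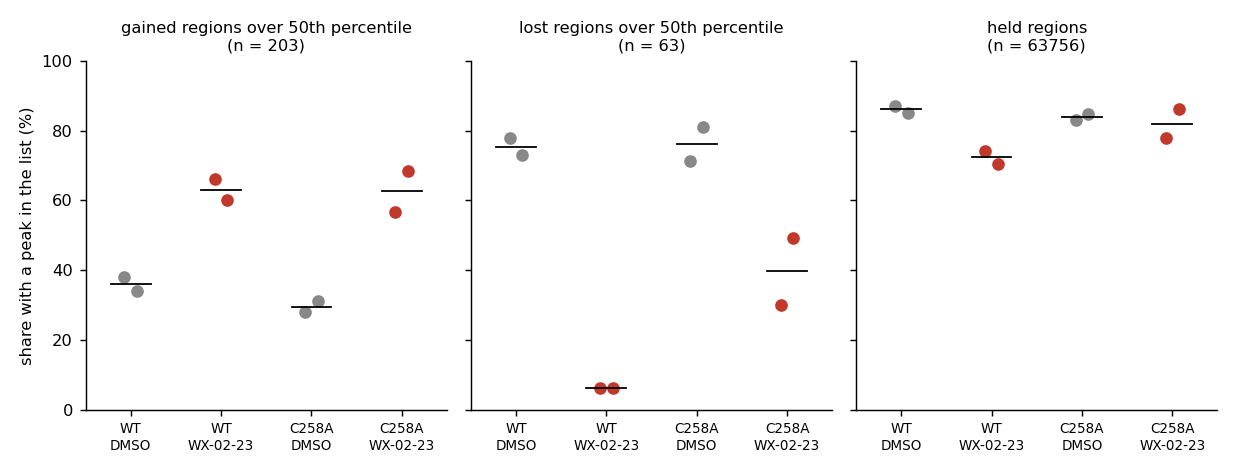
Share of regions (%) with a peak in each engineered library, for the 203 gained and 63 lost regions over the 50th percentile and for the 63756 held regions. Points are the 2 libraries of a group (grey DMSO, red WX-02-23), lines their mean, and in the WT-FOXA1 line the lost regions sit at 6.35% in each WX-02-23 library, against 30.2% and 49.2% in the C258A-FOXA1 line.

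Gained regions took a smaller share of regions on the gene-dense chromosomes. Gained regions made up 0.772% of the regions of chromosome 19, 1.16% on chromosome 22 and 1.3% on chromosome 17, and reached 2.33% on chromosome 4, 2.28% on chromosome 13 and 2.26% on chromosome 5. Lost regions ranged from 0.717% on chromosome 22 and 0.749% on chromosome 19 to 1.49% on chromosome X and 1.56% on chromosome 2, leaving out chromosome Y with 6 lost regions. Chromosome 19 also had the highest share of held regions (62.5%). Of the regions that were not held, gained regions were still 2.06% on chromosome 19 against 4.44% on chromosome 5, while lost regions were 2.00% and 2.18%. The number of gained per lost regions ran from 1.03 on chromosome 19 to 2.17 on chromosome 21, chromosome Y aside (0.667).

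The share of all peaks on each chromosome was then tested over the 6 lists with limma on log2 shares. Chromosome 19 took 4.04%, 3.93% and 3.98% of the peaks after DMSO and 3.88%, 3.85% and 3.92% after WX-02-23. These groups did not overlap, nor did those of chromosomes 3, 5, 8 and 14, while those of every other chromosome did. The log2 difference of chromosome 19 was −0.04 (SE 0.012, limma adjusted p = 0.139). No chromosome of 24 passed an adjusted p of 0.05 (0%), and 4 had an unadjusted p under it. In these shares the deviations of same-numbered lists correlated at 0.264, 0.673 and 0.300. DMSO replicate 1, however, correlated better with a WX-02-23 list of another number than with WX-02-23 replicate 1. The labels do not say whether same-numbered libraries were prepared together. With the replicate number as a block, limma called 3 chromosomes: 19 (adjusted p = 0.0242) and 22 (adjusted p = 0.0426) were lower and Y (adjusted p = 0.00175) was higher after WX-02-23. Chromosome 22 took 1.94%, 1.91% and 1.93% of peaks after DMSO and 1.87%, 1.84% and 1.92% after WX-02-23. Chromosome Y took 0.199%, 0.209% and 0.202% after DMSO and 0.211%, 0.216% and 0.208% after WX-02-23, so both pairs of groups overlapped by 1 list.

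Gained regions were also a smaller share where peaks were dense. Windows of 1 Mb were split into 5 groups of 20% by the mean number of peaks in the 4 engineered DMSO lists with Dox, which are not part of the parental comparison. From the sparsest to the densest group, gained regions made up 2.42%, 2.56%, 2.20%, 1.67% and 1.21% of regions, and lost regions 1.44%, 1.34%, 1.29%, 1.23% and 0.946%. Among regions that were not held, gained regions went from 4.11% to 2.90% and lost regions from 2.44% to 2.27%. The densest 20% of windows held 37.8% ± 0.48 (SD, n = 3) of peaks after DMSO and 37.0% ± 0.27 after WX-02-23. All WX-02-23 lists were below all DMSO lists, which gives the smallest p the design allows (exact permutation p = 0.1, adjusted p = 0.2). The sparsest 20% held 8.48% ± 0.14 and 8.73% ± 0.13 (exact permutation p = 0.2, adjusted p = 0.2).

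**Figure D4:**
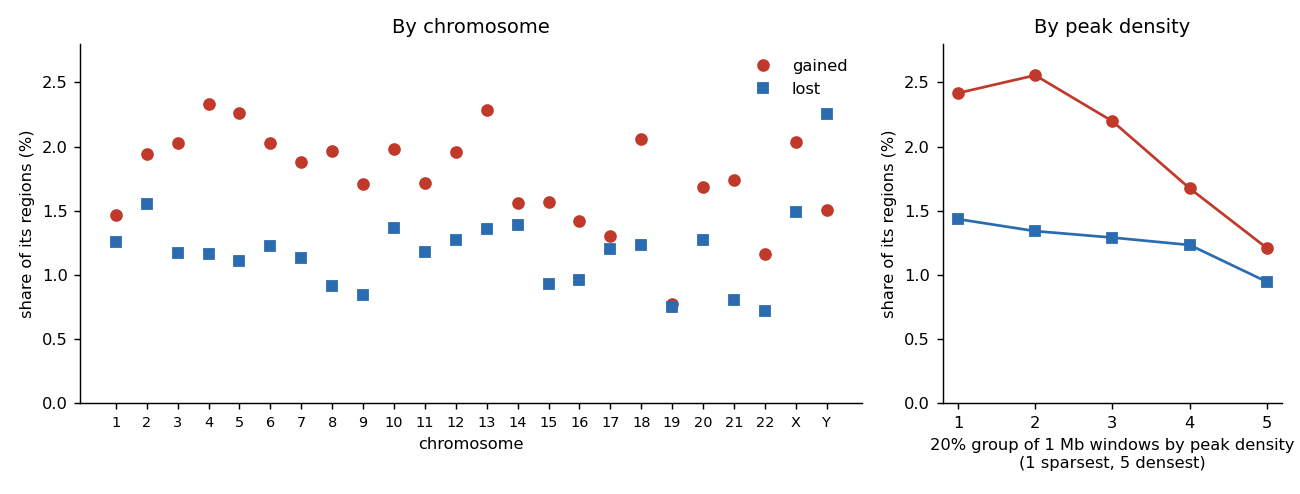
Gained (red circles) and lost (blue squares) regions as a share (%) of all regions of each chromosome, left, and of each 20% of 1 Mb windows ordered by peak density, right. Gained regions are at 0.772% on chromosome 19 and 2.33% on chromosome 4, and go from 2.42% in the sparsest to 1.21% in the densest group.

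Some stretches of the genome had more or fewer peaks after WX-02-23. Among 2849 windows with a mean of at least 5 peaks, limma called 32 (1.12%) on log2 counts scaled to equal totals, 19 with more peaks (0.667%) and 13 with fewer (0.456%), and 420 had an unadjusted p under 0.05. The clearest rise was at chr5:30000001-31000000, with 9, 13 and 10 peaks after DMSO and 18, 17 and 19 after WX-02-23 (log2 difference 0.70, SE 0.13, adjusted p = 0.00615). The window chr3:80000001-81000000 went from 9, 9 and 8 to 17, 14 and 14 peaks (log2 difference 0.70, adjusted p = 0.00902) and held 6 gained regions, more than any other window. In both, the lowest WX-02-23 list lay above the highest DMSO list. The clearest fall was at chr4:28000001-29000000, from 24, 25 and 25 to 17, 17 and 19 peaks (log2 difference −0.48, adjusted p = 0.0123). The window chr17:52000001-53000000 went from 20, 29 and 24 to 15, 15 and 20 peaks (log2 difference −0.54, adjusted p = 0.0123) and held 5 lost and 0 gained regions, the most lost regions of any window. Groups touched there, at 20 peaks in a list of each. Chromosome X held 4 of the 13 windows with fewer peaks, among them chrX:42000001-43000000 (11, 14 and 12 against 7, 8 and 7) and chrX:113000001-114000000 (10, 10 and 9 against 6, 5 and 5). It held 0 of the 19 windows with more, and 139 of all windows tested.

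Not every called window held a gained or lost region. The 19 windows with more peaks held 39 gained and 3 lost regions, and 2 of them held neither kind. The 13 windows with fewer peaks held 1 gained and 25 lost regions, and 4 held neither. Across all windows, 1476 had a gained region, 1104 a lost one and 600 both. The number of called windows depended on single libraries: limma called 10 without DMSO replicate 1, 20 without DMSO replicate 3, and 6, 7 and 7 without WX-02-23 replicate 1, 2 and 3, against 34 without DMSO replicate 2. In the engineered lists, 23 of the 32 windows moved the parental way in the WT-FOXA1 line (median log2 change in that direction 0.07) and 23 of 32 in the C258A-FOXA1 line (0.09), against 0.44 in parental cells. Without scaling to equal totals, 0 of 19 windows with more and 13 of 13 with fewer peaks moved the parental way in the WT-FOXA1 line (median −0.20 over the 32). The WX-02-23 lists of that line held 67815 and 62832 peaks and its DMSO lists 88140 and 85009, so without scaling all 32 windows had fewer peaks there after WX-02-23, in lists that were shorter as a whole. In the C258A-FOXA1 line it was 24 of 32 (0.10). The share of all 2849 windows that moved each way in these lines was not computed, so these counts have no background. The called windows were also sparser than most, with a median of 19.0 (more) and 22.1 (fewer) mean peaks against 29.7 over all windows tested. The part of peak density in the counts was not tested.

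**Figure D5:**
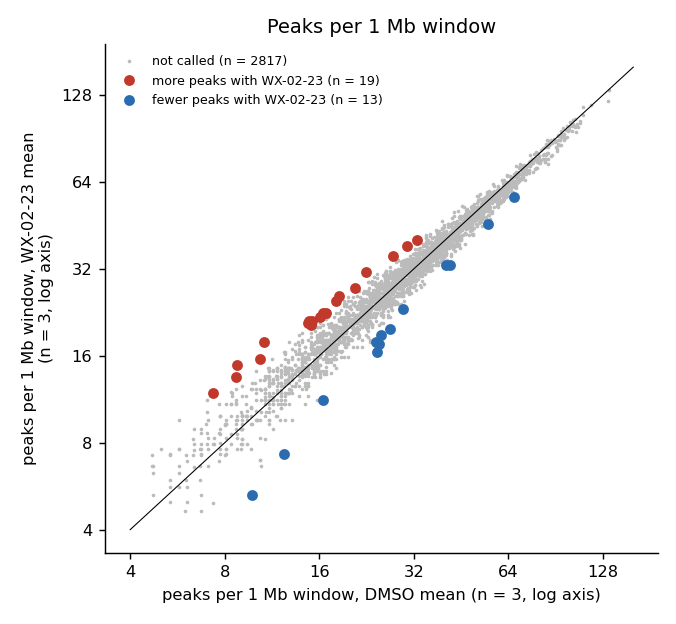
Mean number of peaks per 1 Mb window after DMSO (horizontal axis) and WX-02-23 (vertical axis), both log axes and scaled to equal list totals, for 2849 windows. The 19 windows called with more (red) and the 13 with fewer peaks (blue) lie on either side of the line of equal numbers, mostly at fewer than 32 peaks.

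Within held regions, few peaks were called wider or narrower. In 50170 held regions each list had exactly 1 peak. Limma on centred log2 width called 17 of them (0.0339%), 7 wider (0.014%) and 10 narrower (0.0199%). An unadjusted p under 0.05 was found in 5008, more than a share of 0.05 of the regions tested. In simulated data limma recovered 42% of width changes of 1 log2 unit, so the number of calls does not give the number of widths that changed. The largest widening called was at chr9:8768852-8769548, where the peak spanned 169, 167 and 170 bp after DMSO and 697, 622 and 613 bp after WX-02-23 (log2 difference 1.92, SE 0.10, adjusted p = 0.0169). The authors' fold there was 5.32 to 6.49 in the DMSO lists and 8.88 to 10.5 in the WX-02-23 lists. At chr7:17347633-17348432 the width went from 252, 272 and 215 bp to 798, 759 and 800 bp. In the other direction, chr12:64987185-64987906 went from 722, 679 and 677 bp to 229, 221 and 238 bp (log2 difference −1.61, adjusted p = 0.0198), and chr2:185360388-185360916 from 467, 477 and 508 bp to 150, 154 and 150 bp. The last 3 widths are at or near the floor of the lists, whose narrowest peak spans 150 bp. The 3 DMSO widths at chr9:8768852-8769548 are not far above that floor either. Wider regions had a median of 247 bp after DMSO and 645 bp after WX-02-23, and narrower ones 511 and 197 bp. These calls are fragile, since limma called 0 regions when any 1 of the 6 libraries was left out, with 4664 to 4946 at an unadjusted p under 0.05. With the replicate number as a block it also called 0, with 4820. In the engineered lists only 5 and 4 of the 17 regions had 1 peak in each library, and 4 of 5 in the WT-FOXA1 and 4 of 4 in the C258A-FOXA1 line changed the parental way.

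Limma called a summit shift in 58 of the 50170 regions (0.116%), at an adjusted p under 0.05 and a shift of at least 50 bp. An unadjusted p under 0.05 was found in 2451, fewer than a share of 0.05 of the regions tested. The called shift was towards higher coordinates in 37 regions (0.0737%) and lower ones in 21 (0.0419%). Its size was a median of 266 bp (106 to 786 bp), against 18 bp over all regions tested. The regions concerned were wide, with a median of 884 bp against 493 bp for all. At chr10:132098769-132100262 the summit lay 657, 648 and 664 bp from the region's start after DMSO and 1157, 1148 and 1148 bp after WX-02-23 (shift 495 bp, SE 10.5, adjusted p = 0.00045). At chr12:14922837-14924269 it moved from 449, 410 and 439 bp to 1188, 1237 and 1231 bp (shift 786 bp, adjusted p = 0.000557). At chr7:107146369-107147666 it moved the other way, from 777, 817 and 808 bp to 367, 371 and 369 bp. The widths of these peaks changed little, for example 1467, 1386 and 1382 bp against 1421, 1454 and 1417 bp at the chromosome 10 region, and no region was called for both width and summit. The highest point thus lay at different places inside a broad peak that both treatments had. Without DMSO replicate 1 limma called 94 regions, and without DMSO replicate 2 it called 97. With the replicate number as a block it called 0, with 2213 at an unadjusted p under 0.05, and all 8 named regions lost the call. Same-numbered lists did not deviate together in width or summit position. In the engineered lists the shift was in the parental direction in 13 of 28 regions with 1 peak in each library of the WT-FOXA1 line (median −1 bp) and in 21 of 35 of the C258A-FOXA1 line (median 6.5 bp).

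Some held regions were divided into peaks differently in the DMSO and WX-02-23 lists. Of all held regions, 21.3% had several peaks in at least 1 list, and the counts below carry no test. In 157 held regions (0.246%) each DMSO list had several peaks and each WX-02-23 list a single one, and in 107 (0.168%) the reverse was found. The widest fused region, chr10:91403508-91405561, had 2, 3 and 2 peaks after DMSO and 1 peak of 2054, 1947 and 1894 bp after WX-02-23. The widest split region, chr4:99181453-99183455, had 1 peak of 1872, 1935 and 1894 bp after DMSO and 2, 3 and 2 peaks after WX-02-23. At chr16:62758037-62759663 a single DMSO peak of 1203 to 1479 bp stood against 3 peaks in each WX-02-23 list. Fewer lists make these rules easier to meet too: leaving out any 1 of the 6 libraries gave 241 to 416 fused and 185 to 320 split regions. Fused regions need several peaks in every DMSO list and split regions in every WX-02-23 list. Leaving out a list therefore eases the rule of its own group most, and no conclusion is drawn from the balance. Fused regions outnumbered split ones without any 1 DMSO list (374 and 185, 416 and 187, 393 and 189), and split outnumbered fused regions without WX-02-23 replicate 1 (320 and 241), 2 (285 and 276) or 3 (279 and 271).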

How the data were processed

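ATAC-seq was done with a kit, per the labels' protocols. The submitters' processing notes name Bowtie2, MACS2 and hg19, with no versions or options. The authors deposited 1 peak list per library, so none were pooled. Each deposited list gives per peak a position, a fold ratio over local background, the −log10 of the p-value and of the q-value, and the summit. The lowest −log10 q in the deposited lists was 2.00 to 2.10, a q-value of about 0.01. The authors' ratios and −log10 values were used within each list alone, for description, ranking and filtering. A region without a peak may still be open below detection. For duplicate removal and read shifting the entry is: not given in the sources used here.

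Read depth is unknown. The background in reads per base was recovered from the steps of the deposited fold ratios (tolerance 0.0001), on which 20.5% to 23.8% of peaks lay. Groups and replicate numbers came from the labels. Peaks overlapping by at least 1 bp or touching were merged, which gave the same 124871 regions as bedtools 2.31.1. Exact permutation tests of list measures were two-sided. Width (centred log2), summit position (trend on log2 merged width), peaks per 1 Mb window (log2 of scaled count plus 1, mean of at least 5) and chromosome shares (log2) were fitted with limma 3.58.1 in R 4.3.3 over the 6 lists, with Benjamini-Hochberg adjustment over all features and a threshold of 0.05. In simulated data limma recovered 42% of width changes of 1 log2 unit and 86% of 2 among 50170 regions. It recovered 52% of summit shifts of 200 bp and 89% of 400 bp among 50170 regions, 78.5% of window changes of 0.5 log2 units among 2849, and 100% of 4 chromosome changes of 0.1 among 24. False calls numbered 6 for width, 7 for summit, 10 for windows and 0 for chromosomes. The simulated noise was normal and independent, so these numbers do not cover summits or widths that jump between separate values. All simulated gained and lost regions were recovered. This checks the counting alone, since each simulated site was present in every list of a group or in none. Other software was matplotlib 3.10.9, pandas 2.3.3 and numpy 2.4.6 under Python 3.11.15, with statsmodels 0.14.6 and scipy 1.17.1.

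Regions were named by rule: the 10 gained and 10 lost with the highest mean percentile of −log10 p, the 5 wider, 5 narrower and 8 shifted regions and up to 5 windows of each direction with the smallest p among those called, the 5 windows with the most gained and the 5 with the most lost regions, and the 3 widest fused and 3 widest split regions. The members, lists and tests were chosen with earlier results of these data known. The blocked fit is given for chromosome shares, where the deviations of same-numbered lists correlated at 0.264, 0.673 and 0.300. The first of these was not the best match of its DMSO list, and the labels give no pairing. In width, summit and window values their correlations were −0.027 to 0.018. Alternatives were a q-value of 1e-05, lists of equal length, 50% of a region covered, summit windows, 1 library allowed to differ, other window sizes, scalings and variance settings, a replicate block and leaving out each library. The comparisons by peak density, of called windows in the engineered lines and of highly ranked regions in those lines were chosen after seeing the data, and so were their alternatives. Gene names, promoters, motifs and sequences were not analysed here, since coordinates were not converted between builds.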

Additional observations from a re-analysis of the deposited data

Results flagged for a closer look

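The share of peaks in the sparsest and densest 20% of 1 Mb windows (for engineered lists, windows ordered by the 3 parental DMSO lists) moved in opposite ways in the engineered lines, in all libraries of the full lists. In the sparsest 20% the WT-FOXA1 line went from 8.85% ± 0.03 with DMSO to 8.23% ± 0.28 with WX-02-23 (SD, n = 2), and the C258A-FOXA1 line from 10.1% ± 0.16 to 10.7% ± 0.42. The change in the WT-FOXA1 line minus that in the C258A-FOXA1 line was −1.27 percentage points. In the densest 20% the shares went from 37.5% ± 0.01 to 39.1% ± 0.81 and from 36.4% ± 0.70 to 34.8% ± 1.1, and the same difference was 3.17 points. Neither difference was tested. List length also differed: the WT-FOXA1 line had 88140 and 85009 peaks with DMSO and 67815 and 62832 with WX-02-23. The C258A-FOXA1 line had 84260 and 87171 with DMSO and 76645 and 92658 with WX-02-23. The engineered shares were not taken at equal list length, so the part of list length in them was not tested.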

How the results depend on the processing

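Gained regions (2075 to 2793) and lost regions (1352 to 1893) stayed within 1.5 times their counts with a q-value of 1e-05, lists of equal length, summit windows or 50% coverage. They were 8394 and 6639 when 1 library could differ. Leaving out each library gave 2925 to 3730 gained, 2044 to 2773 lost, 241 to 416 fused and 185 to 320 split regions, with fewer lists to satisfy. It gave 0 to 0 width calls, 74 to 97 summit calls, 6 to 34 windows and 0 to 2 chromosomes, and differences in the median gap of −0.174 to 0.259 kb. With a q-value of 1e-05 there were 9 width calls, 1 chromosome call and a median gap difference of −0.026 kb. With the replicate number as a block limma called 0 widths (4820 at an unadjusted p under 0.05), 0 summits (2213), 48 windows and 3 chromosomes. Deviations of same-numbered lists correlated at 0.264 to 0.673 in chromosome shares, and the labels give no pairing. The block took the call from all 10 named width and 8 named summit regions and from none of the 10 named windows. Of the 10 named windows, 4 stayed called with a q-value of 1e-05, and 3 to 8 with a library left out. Without scaling, the median signed change of the called windows in the WT-FOXA1 line was −0.20. For highly ranked regions over the 25th percentile (1116 gained, 641 lost), the change in the gained share was 12.9 points (WT-FOXA1) and 20.5 points (C258A-FOXA1), and that in the lost share −44.3 points (WT-FOXA1) and −21.5 points (C258A-FOXA1). Over the 75th percentile only 9 gained and 1 lost regions were left, with changes of 44.4 and 55.6 points for gained and 0 and 0 for lost, and a difference between the lines of 0 for lost. With engineered lists of equal length (62832 peaks), the WT-FOXA1 changes were 37.9 points for gained and −54.0 points for lost regions, and the difference between the lines for gained regions turned to 8.87 points. The other causes were not tested. Presence of a peak depends on read depth, which is unknown, and a region near the detection limit can change class without a change in accessibility.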

Other observations

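Windows rich in gained or lost regions were not always windows with more or fewer peaks. Besides chr3:80000001-81000000, the windows with the most gained regions were chr12:44000001-45000000, chr7:13000001-14000000, chr10:7000001-8000000 and chr9:128000001-129000000, with 5 gained and 0 lost regions each. Their log2 differences in peaks were 0.27, 0.27, 0.15 and 0.12, with limma adjusted p-values of 0.111, 0.153, 0.393 and 0.429. Among the windows with the most lost regions, chr18:24000001-25000000 held 4 lost regions and went from 41, 49 and 44 to 39, 38 and 37 peaks (limma adjusted p = 0.064). The windows chr8:128000001-129000000 and chr20:44000001-45000000 held 4 lost and 1 gained region each, with log2 differences of −0.10 and −0.03 (limma adjusted p = 0.558 and 0.852).

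A gained run at chr20:2618553-2660269 held 3 gained regions among 8 regions in 41.7 kb, of which 3 were held, so it lay inside an open stretch. A run at chr16:46819098-46864351 held 3 gained regions among 4 regions in 45.3 kb, of which 1 was held.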
